A study of Mus musculus with 9 samples.

Results

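Embryoid bodies cultured for 7 days were compared with the undifferentiated embryonic stem (ES) cells they came from, in 3 mouse ES cell lines. The comparison used 6 of the study's 9 arrays, chosen by their titles: the 3 arrays of embryoid bodies at day 7 and the 3 arrays of undifferentiated cells (day 0), with each day 7 array set against the day 0 array of its own line. The lines were wild type, PKm1 knock-in and PKm2 knock-in, the last pair carrying a knock-in of the M1 or the M2 isoform of the glycolytic enzyme pyruvate kinase. Total RNA was labelled with Cy3 and read on one-colour Agilent arrays. Undifferentiated cells of every line were kept in medium with LIF, the cytokine that holds mouse ES cells in self-renewal, and embryoid bodies were floated in medium without it. Each genotype was 1 cell line and each line and day was 1 array, so the 3 lines were the only replicates of a day and p-values speak only of the spread among these arrays. The other 3 arrays, embryoid bodies at day 3, entered the fit and are given beside some values. Strain, passage and feeder cells are not described by the labels.

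When LIF is withdrawn and ES cells aggregate in suspension, naive pluripotency gives way to a formative, epiblast-like state. The surface of the aggregate forms primitive endoderm. Its visceral derivative takes up and secretes serum proteins much as liver and yolk sac do, and its parietal derivative lays down basement membrane. Mesoderm and ectoderm arise inside. Inflammatory mediators and interferon-induced genes are made by many cell types, among them the fibroblasts on which ES cells are often grown, and immediate early genes are switched on within minutes by growth factors.

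On each array 54.2% to 61.6% of spots were well above background, and 0 spots were saturated. Of 55681 probes, 27235 carried 1 gene symbol, and 15013 genes were detected on 3 or more of the 9 arrays and were tested. Levels are log2 of the scaled signal, in which 1 unit is a doubling, and changes are day 7 minus day 0. Where 3 values are given together, they are those of the wild type, the PKm1 knock-in and the PKm2 knock-in line, in this order. The day 7 array of the PKm1 knock-in line stood apart: its correlation with the day 0 arrays over the genes tested was 0.908 to 0.918, against 0.946 to 0.96 for the day 7 array of the wild type line and 0.949 to 0.957 for that of the PKm2 knock-in line. The day 7 array of the PKm2 knock-in line was alone on slide 3, while its day 0 array was on slide 1. Both arrays of the wild type line were on slide 1 and both of the PKm1 knock-in line on slide 2, so the changes of these lines are within-slide values. Pkm, the edited gene, stood at 13.67, 13.57 and 13.79 at day 0 and 14.69, 13.91 and 13.64 at day 7 (log2 change 0.401 ± 0.35, SE, n = 3 lines, adjusted p = 0.618). This does not check the knock-ins, because it is not known here which of the alternative exons the probe reads.

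The genes that moved furthest in all 3 lines included, on the higher side, genes of visceral endoderm and, on the lower side, genes of inflammation, of the immediate early response and of fibroblast matrix. The 300-base promoters below, from 250 bases before the start of transcription to 50 after it, are shown because they belong to genes among the 15 largest shared differences in each direction and hold a short motif of a factor known for that class of gene. The sequences are RefSeq's for GRCm38.p6, written 5′ to 3′ along the gene, with the match in capitals. Dab2, the endocytic adaptor of primitive endoderm, is at chr15:6299539-6299838 (plus strand), and Hnf4a, a nuclear receptor of visceral endoderm and liver, at chr2:163506607-163506906 (plus strand). S100g, a cytosolic calcium carrier, is at chrX:162964550-162964849 (minus strand). These 3 genes were higher at day 7. Il6, the inflammatory cytokine, at chr5:30012864-30013163 (plus strand), and Mmp3, the matrix protease stromelysin, at chr9:7445572-7445871 (plus strand), were lower.
Dab2: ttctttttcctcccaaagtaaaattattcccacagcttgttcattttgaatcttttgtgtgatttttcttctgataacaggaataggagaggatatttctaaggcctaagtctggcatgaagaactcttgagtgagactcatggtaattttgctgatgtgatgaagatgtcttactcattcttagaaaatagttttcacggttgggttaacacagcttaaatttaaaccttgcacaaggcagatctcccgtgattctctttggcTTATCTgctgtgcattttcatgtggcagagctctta
Hnf4a: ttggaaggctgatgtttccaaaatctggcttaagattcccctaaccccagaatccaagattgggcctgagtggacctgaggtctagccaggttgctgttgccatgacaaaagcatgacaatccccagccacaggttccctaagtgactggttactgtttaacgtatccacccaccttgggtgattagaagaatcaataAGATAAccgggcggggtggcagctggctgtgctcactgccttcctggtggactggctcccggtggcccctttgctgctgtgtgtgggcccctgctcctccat
S100g: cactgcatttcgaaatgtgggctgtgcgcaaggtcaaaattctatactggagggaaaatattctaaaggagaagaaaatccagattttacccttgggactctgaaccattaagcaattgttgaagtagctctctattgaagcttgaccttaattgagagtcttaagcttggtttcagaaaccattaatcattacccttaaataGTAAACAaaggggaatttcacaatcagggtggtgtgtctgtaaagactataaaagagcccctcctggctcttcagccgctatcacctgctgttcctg
Il6: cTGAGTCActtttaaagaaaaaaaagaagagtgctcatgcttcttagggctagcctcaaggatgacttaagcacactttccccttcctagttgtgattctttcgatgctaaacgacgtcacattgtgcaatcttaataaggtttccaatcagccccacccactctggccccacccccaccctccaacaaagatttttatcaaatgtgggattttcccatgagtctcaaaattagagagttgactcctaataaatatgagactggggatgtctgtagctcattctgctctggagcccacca
Mmp3: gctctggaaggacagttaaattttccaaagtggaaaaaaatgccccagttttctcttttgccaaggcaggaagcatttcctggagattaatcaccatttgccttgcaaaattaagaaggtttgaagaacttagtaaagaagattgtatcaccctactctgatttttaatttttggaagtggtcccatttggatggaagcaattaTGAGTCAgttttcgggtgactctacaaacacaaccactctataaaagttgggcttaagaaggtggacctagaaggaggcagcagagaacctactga

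The capitals in Dab2 and Hnf4a are the motif of GATA factors (AGATAA), zinc finger proteins of endoderm, read on the opposite strand in Dab2, which begins at 15 after the start in Dab2 and at -52 in Hnf4a. Those in S100g are a FOXA motif (TGTTTAC), read on the opposite strand, at -47. In Il6 and Mmp3 they are AP-1 motifs (TGAGTCA), the sequence bound by Fos and Jun dimers, at -249 and -46. Every motif was searched on both strands, as was that of HNF4 (CAAAGTCCA). No printed window held a second match, so no matches overlapped. RefSeq promoters were found for 10 of the 15 genes with the largest shared difference on the higher side and for 10 of the 15 on the lower side. The GATA motif was in 2 of the first 10 and in 11.4% of all 27025 promoters. The AP-1 motif was in 2 of the second 10 and in 5.17% of all promoters. The FOXA motif was in 1 of the first 10 and in 3.55% of all promoters and the HNF4 motif in 0.477%. Larger sets, given further on, were the genes at least 2-fold lower in all 3 lines (106 promoters), those at least 2-fold higher (86 promoters) and all genes tested (11925 promoters). The AP-1 motif was in 7.55% of the lower, 4.65% of the higher and 3.81% of the tested set. The FOXA motif was in 4.72%, 2.33% and 2.6%, so its share was not greater on the higher side, and the GATA motif in 7.55%, 9.3% and 7.07%. The HNF4 motif was in 0 of the lower promoters, 2.33% of the higher and 0.352% of the tested. A match is a description of these letters and not a site of binding.

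Ttr, Afp, Apob, Ctsh, Dab2 and Hnf4a, all of visceral endoderm, were among the 15 genes with the largest shared difference on the higher side. None of them passed the test, and the lines differed widely in size. Ttr, which encodes the thyroid hormone and retinol carrier transthyretin, had levels of 2.72, 3.15 and 3.005 at day 0, none well above background, and of 9.48, 15.17 and 8.73 at day 7. Transthyretin signal was at least 124-fold higher (log2 change 8.17 ± 1.23, SE, n = 3 lines, limma adjusted p = 0.0965). Each SE in this text is limma's moderated value from the fit to all 9 arrays. It is not the spread of the 3 line changes, whose SD was 3.38 for Ttr and 5.80 for Afp. Ratios to a group with no detected array are given as lower limits for the mean of the 3 lines, and single lines can lie below them. Each dim array was put at the lowest signal that was well above background on it, or left at its own signal where that was higher. This is the least strict such limit, since undetected signals can exceed it. Mst1 was undetected at 4.52 on the PKm2 knock-in day 7 array, whose limit was 4.45. By line, these limits on the log2 scale were 5.40, 10.58 and 4.87 for Ttr and 5.04, 13.12 and 2.47 for Afp. Afp, which encodes alpha-fetoprotein, went from 2.32, 2.56 and 2.32, again not well above background, to 9.12, 17.71 and 6.32, at least 117-fold higher (8.65 ± 2.17, adjusted p = 0.189). The PKm1 knock-in line had the highest day 7 level of both genes, yet in each line the day 7 array lay above every day 0 array.

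Apob, the protein of low density lipoproteins and yolk sac lipid export, stood at 5.804, 3.62 and 4.63 at day 0 and 8.55, 13.89 and 7.52 at day 7. Fgb, the fibrinogen beta chain, was not well above background at day 0 and reached 5.46, 14.02 and 5.03, at least 15.9-fold higher (adjusted p = 0.258). Habp2, a serum serine protease, was likewise undetected at day 0 and reached 6.1, 12.58 and 7.24 (at least 22.1-fold, adjusted p = 0.138). In all 3 of these genes every day 7 array lay above every day 0 array, as for 7.06% of all genes. Over the secreted carriers of visceral endoderm, 15 of 20 listed genes were tested, 8 were higher in all 3 lines, 1 was lower in all 3 (Serpinf1, changes of -0.32, -0.39 and -2.67) and 6 went different ways. Over all 15013 genes, 2361 were higher in all 3 lines, 3007 were lower in all 3 and 9645 were of mixed direction. The median change was 1.08, 8.32 and 0.29 by line. Pla2g12b, a secreted phospholipase A2 family member, had changes of -2.08, 8.63 and 2.84, so that the wild type line went against the others.

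Of 13 genes of the uptake side of visceral endoderm that were tested, 9 were higher in all 3 lines, 0 were lower in all 3 and 4 went different ways. Dab2 had levels of 6.15, 5.31 and 5.33 at day 0 and 9.82, 12.82 and 7.39 at day 7, which did not overlap (21.3-fold, 4.41 ± 1.21, adjusted p = 0.21). Lrp2, the receptor megalin, went from 7.83, 7.97 and 8.77 to 11.05, 12.71 and 10.21 (8.76-fold, adjusted p = 0.155). Cubn, its partner cubilin, had changes of 0.78, 8.95 and 5.98, and Amn, which anchors cubilin at the membrane, of -1.82, 4.96 and 0.74. A second Cubn probe, well above background on 3 of the 6 arrays, had changes of -4.92, 7.30 and 3.7, so that the wild type direction of Cubn depended on the probe. Lrp2 was thus higher in every line, whereas the change of Amn was below 0 in the wild type line. Ctsh, the lysosomal protease cathepsin H, was higher by 3.79, 7.38 and 2.36 and Slc23a1, a vitamin C transporter, by 1.13, 2.11 and 1.097. The medians of the list were 0.81, 4.96 and 1.01.

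Among the factors that specify endoderm, Foxa2, a forkhead factor, stood at 4.88, 4.13 and 6.45 at day 0 and 10.35, 13.06 and 8.41 at day 7. Sox17, which specifies definitive and extraembryonic endoderm, stood at 5.08, 3.76 and 5.701 and 8.97, 13.11 and 6.88. Hnf4a, the nuclear receptor of visceral endoderm and liver, stood at 6.94, 3.34 and 4.52 and 9.29, 12.74 and 6.801. For Foxa2 and Sox17 every day 7 level was above every day 0 level, whereas for Hnf4a the day 7 level of the PKm2 knock-in line lay below the day 0 level of the wild type line. Gata4, a zinc finger factor of endoderm and heart, had changes of 1.64, 5.74 and 0.83. Of 11 endoderm factors tested, 8 were higher in all 3 lines, with medians of 1.64, 5.74 and 0.79. Cdx2, a caudal factor of gut and trophoblast, was higher by 1.68 and 6.04 in the wild type and PKm1 knock-in lines but had a change of -2.12 in the PKm2 knock-in line.

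Of 15 basement membrane genes, 6 were higher in all 3 lines, 1 was lower in all 3 and 8 went different ways. Col4a1 and Col4a2, the paired chains of collagen IV, had changes of 3.54, 8.93 and 1.899 and of 3.55, 8.78 and 1.92. Pth1r, the parathyroid hormone receptor found on parietal endoderm, stood at 6.22, 5.65 and 6.37 at day 0 and 9.19, 14.37 and 8.31 at day 7 (23.3-fold, adjusted p = 0.221). Hspg2, the matrix proteoglycan perlecan, lay at -0.07, -0.23 and -0.06, and its sign depended on the probe and on 1 array. It was the member lower in all 3. In this list 3 genes were at least 2-fold higher in all 3 lines, and the medians were 0.48, 3.43 and 0.15. In limma 0 genes of these 4 endoderm lists passed, while at an unadjusted p under 0.05 there were 5 higher secreted carriers, 6 uptake genes, 6 endoderm factors beside 1 lower, and 6 basement membrane genes. Over all genes 7.25% were higher and 7.07% lower at that p, 14.3% in all. These are bulk samples, in which more or fewer cells of a type and more or less RNA per cell cannot be told apart.

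**Figure D1:**
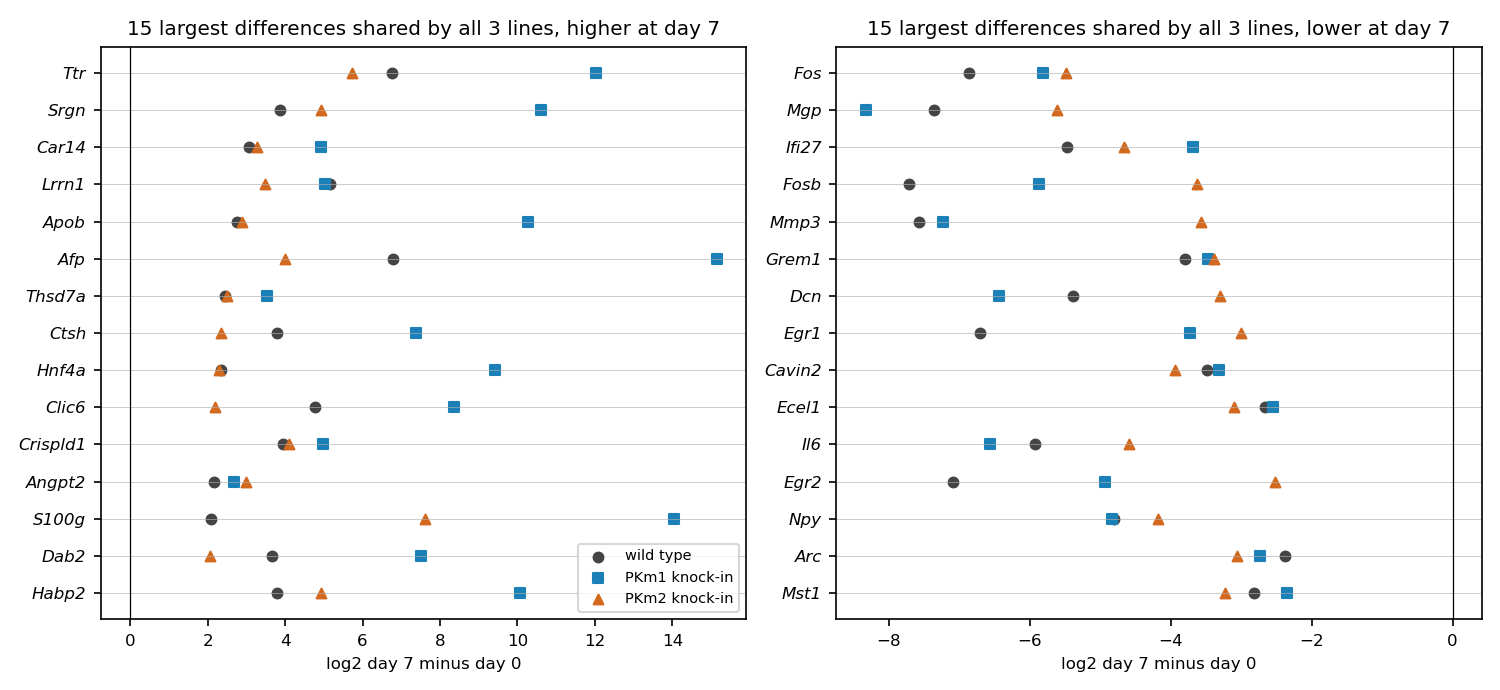
Change in log2 signal from day 0 to day 7 (x axis) in each line for the 15 genes with the largest shared difference on the higher side (left) and on the lower side (right), ordered by the line that changed least with dim arrays put at the detection limit. Each point is 1 line (1 array a day, no error bar): the PKm1 knock-in line lies farthest out for the visceral endoderm genes, up to 15.15 for Afp, while the points of Grem1 and Ecel1 lie close together.

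At a change of at least 2-fold in the same direction in every line, 125 of 15013 genes (0.833%) were higher at day 7 and 141 (0.939%) were lower. Every day 7 array lay above every day 0 array for 1060 genes (7.06%) and below for 1308 (8.71%). Of the 125, 113 had groups that did not overlap, and of the 141, 121. On the higher side 28 of the 125 genes were not well above background on any day 0 array, and on the lower side 20 of the 141 were not on any day 7 array. The median change of the 125 genes was 1.85, 2.71 and 1.80, and that of the 141 was -1.73, -2.12 and -2.24. Both medians follow from the rule that chose the genes and are given as a description.

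Some of the largest shared increases were of genes in none of the endoderm lists, which does not say which cells made them. Srgn, the core protein of the secretory granule proteoglycan serglycin, stood at 5.01, 4.05 and 4.94 at day 0 and 8.88, 14.67 and 9.86 at day 7. Angpt2, an angiopoietin that acts on endothelial Tie2, stood at 4.88, 4.21 and 5.11 and 7.04, 6.89 and 8.12 (2.62 ± 0.37, adjusted p = 0.0815). Lrrn1, a leucine-rich repeat membrane protein, was undetected at day 0 and reached 7.49, 7.75 and 6.8. All 3 genes had day 7 levels above every day 0 level. S100g stood at 7.93, 2.75 and 2.32 at day 0 and 10.02, 16.78 and 9.93 at day 7, with only the wild type array well above background at day 0. Its changes were 2.09, 14.03 and 7.61, and those of a second probe, well above background on 3 of the 6 arrays, were 8.06, 14.53 and 8.06. The size of the wild type change thus depended on the probe. Crispld1, a secreted cysteine-rich protein, was undetected at day 0 and reached 6.27, 7.68 and 6.41, and the membrane protein gene Thsd7a had changes of 2.45, 3.53 and 2.51. Clic6, an intracellular chloride channel family member, was higher by 4.78, 8.36 and 2.19.

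By limma with adjustment over all genes, 15 of 15013 (0.0999%) passed at an adjusted p under 0.05: Car14 rose and 14 genes fell. At an unadjusted p under 0.05 there were 2149. The measured difference of each of the 15 was at least 2-fold in the same direction in every line. With undetected arrays at their detection limit this held for 14, the exception being Areg, for which the PKm2 knock-in line was then at -0.52. Car14, a membrane-bound carbonic anhydrase, had levels of 4.74, 4.43 and 5.65 at day 0, with the PKm1 knock-in array not well above background, and of 7.82, 9.35 and 8.94 at day 7. Its day 7 levels lay well clear of the day 0 levels, and it was 13.1-fold higher with the undetected array at its detection limit (3.76 ± 0.36, SE, n = 3 lines, adjusted p = 0.0365).

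Il6, Ereg, Areg, Slpi and Npy, which encode secreted proteins, were among the genes that fell. Il6 went from 8.99, 8.88 and 6.99 to 3.07, 2.32 and 2.39, none well above background at day 7, and was at least 18.0-fold lower (-5.69 ± 0.44, adjusted p = 0.0229). Its pair of spots disagreed on the PKm2 knock-in day 0 array, at 350.9 and 42.02 before scaling, and neither carried a quality flag. Ereg and Areg, ligands of the epidermal growth factor receptor, were also undetected at day 7. Ereg went from 9.09, 8.52 and 6.397 to 2.32, 2.32 and 2.35, at or just above the floor of the scale (at least 14.8-fold lower, -5.67 ± 0.52, adjusted p = 0.0365), and Areg from 5.37, 5.15 and 4.97, at least 2.06-fold lower (-2.55 ± 0.25, adjusted p = 0.0365). Slpi, a secreted inhibitor of leukocyte proteases, went from 10.15, 9.73 and 6.46 to 3.09, 2.32 and 2.32 (at least 25.3-fold, -6.201 ± 0.66, adjusted p = 0.0476). The day 0 level of Il6, Ereg and Slpi was lowest in the PKm2 knock-in line. Npy, neuropeptide Y, went from 7.12, 7.15 and 6.91, nearly the same in the lines, to 2.32, 2.32 and 2.73 (at least 7.69-fold lower, -4.604 ± 0.46, adjusted p = 0.0365).

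Matrix and mesenchyme genes formed another set among those that fell. Mgp, the matrix Gla protein that blocks calcification, went from 11.34, 11.69 and 9.84 to 3.99, 3.37 and 4.24, and 1 of 3 day 7 arrays was well above background. It was 113-fold lower with the undetected arrays at their limits (-7.09 ± 0.59, adjusted p = 0.0247). Col6a3, a collagen VI chain, went from 8.03, 7.07 and 6.32 to 4.43, 3.27 and 2.51, with 1 of 3 day 7 arrays well above background, and had the smallest adjusted p of all genes (-3.74 ± 0.18, adjusted p = 0.00368). The measured changes of Col6a3 were -3.602, -3.8 and -3.81 by line. With undetected arrays at their limits they were -3.60, -3.09 and -1.87 (7.23-fold lower), so a like size in every line is not shown. The fall of Mgp was smallest in the PKm2 knock-in line. Grem1, a secreted antagonist of bone morphogenetic proteins, went from 10.29, 9.61 and 9.29 to 6.49, 6.14 and 5.896, detected on all 6 arrays (11.7-fold lower, -3.55 ± 0.36, adjusted p = 0.0365). Cavin2, a coat protein of caveolae, fell by 3.48, 3.32 and 3.94 in the 3 lines on the log2 scale (adjusted p = 0.0365). The PKm2 knock-in day 7 array was not well above background, and at its limit the change of that line was -2.91. Foxc2, a forkhead factor of mesenchyme, went from 6.15, 5.696 and 5.97 to levels not well above background (at least 3.53-fold lower, adjusted p = 0.0365).

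The 4 others were of mixed kind. Ifi207, of the interferon-inducible p200 family, went from 6.21, 5.698 and 5.99 to undetected (at least 3.61-fold lower, -3.51 ± 0.203, adjusted p = 0.00725). Ecel1, a membrane metallopeptidase, went from 9.63, 8.28 and 8.51 to 6.97, 5.73 and 5.41 (6.82-fold lower, -2.77 ± 0.196, adjusted p = 0.0175). Mst1, macrophage stimulating protein, went from 8.96, 8.06 and 7.74 to 6.14, 5.72 and 4.52 (-2.797 ± 0.23, adjusted p = 0.0247). Vav1, an exchange factor of blood cells, went from 8.51, 8.03 and 8.13 to 6.91, 5.61 and 5.99 (4.15-fold lower, -2.05 ± 0.21, adjusted p = 0.0426). In none of these 4 did a day 7 level reach a day 0 level.

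These calls depended on the spread estimate, on single arrays and on how low signals were handled. Several genes that fell, such as Il6 and Ereg, lay at or near the floor at day 3 and day 7. Their changes, SEs and adjusted p thus rest partly on floored signals, while their folds use the detection limits. With a floor of 20 in place of 5, 11 genes passed, 8 of them among the 15. With the slide as an added block, which drops the PKm2 knock-in day 7 array from the estimate, 1 gene passed (Mgp, adjusted p = 0.0326, against 0.00121 to 0.269 over its alternatives), and with only the 6 arrays compared 0 passed (1550 at an unadjusted p under 0.05). Without the day 0 or the day 7 array of the wild type line 0 passed in limma (1725 and 1675 at an unadjusted p under 0.05), without the day 0 array of the PKm1 knock-in line 0 (1088), without its day 7 array 4, and without the day 7 array of the PKm2 knock-in line 193.

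**Figure D2:**
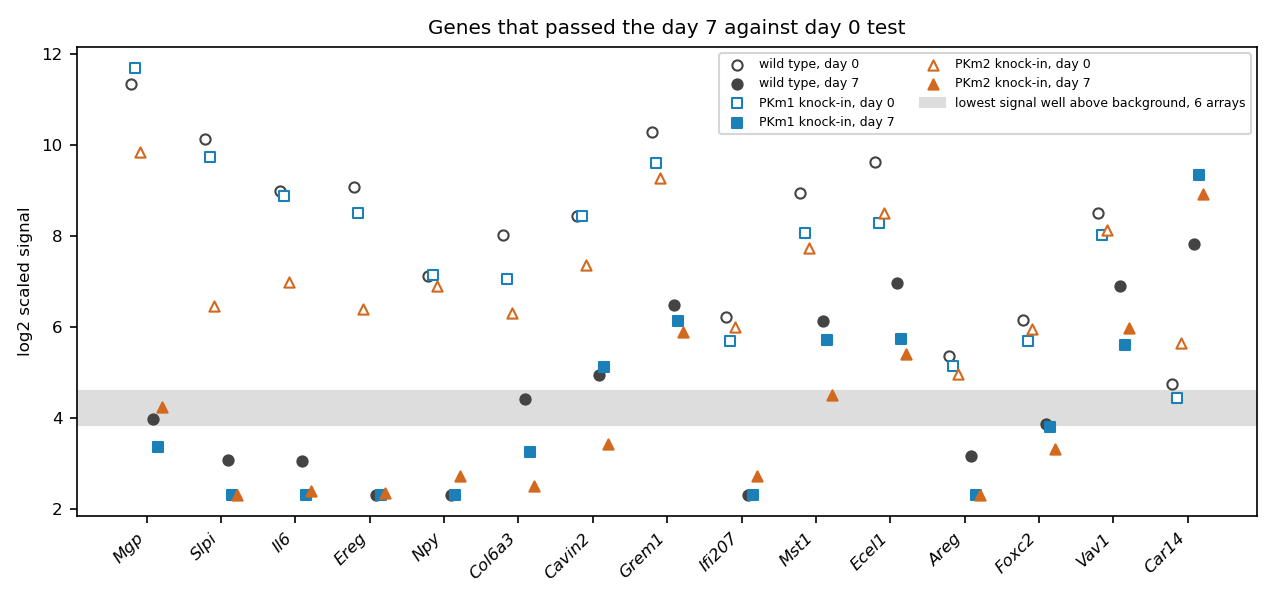
Log2 scaled signal (y axis) of the 15 genes with an adjusted p under 0.05, ordered by log2 change, with open symbols for day 0 and filled symbols for day 7 in each line (1 array each). Within each gene no filled symbol overlaps the open ones, and most filled symbols of the genes that fell lie in or under the grey band, which spans the lowest signals well above background on the 6 arrays.

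Of 19 inflammatory mediators tested, 12 were lower in all 3 lines, 0 were higher in all 3 and 7 went different ways. At least 2-fold lower in all 3 lines were 8 (42.1%, against 0.939% of all genes), and 3 fell in the test (Il6, Ereg and Areg). This list, like the others, was chosen with earlier results of these data known, so the share is a description and not a test. The median was -1.51, -2.26 and -1.69, against -0.03, -0.17 and 0.05 for all genes. Mmp3 went from 10.73, 9.56 and 9.77 to 3.16, 2.32 and 6.198, with the PKm2 knock-in array the only one of day 7 well above background (-6.13 ± 0.78, adjusted p = 0.0677). Lcn2, the iron-binding acute phase protein lipocalin 2, went from 12.67, 13.01 and 7.96 to 5.74, 5.77 and 5.97 (-5.39 ± 1.06, adjusted p = 0.154). The day 0 level of Lcn2 was far lower in the PKm2 knock-in line than in the others. Cxcl10, a chemokine induced by interferon, went the other way in 2 lines, with changes of 2.45, 7.26 and -1.42.

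Of 21 genes of the interferon response tested, 13 were lower in all 3 lines, 1 was higher in all 3 and 7 went different ways. Ifi27 stood at 11.44, 11.998 and 9.91 at day 0 and 5.97, 8.31 and 5.24 at day 7 (24.4-fold lower, -4.61 ± 0.61, adjusted p = 0.0742). Oas1a, an antiviral oligoadenylate synthetase, had changes of -2.26, -3.15 and -2.77 and Ifi204, another p200 family member, of -3.07, -4.305 and -4.403. The Ifi204 probe was well above background on 4 of the 6 arrays, so the sizes of its changes rest partly on undetected signals. In this list 5 genes were at least 2-fold lower in all 3 lines, and the medians were -0.93, -0.53 and -0.96. Only Ifi207 passed the test.

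Of 17 immediate early transcription factors tested, 11 were lower in all 3 lines, 0 were higher in all 3 and 6 went different ways. Fos went from 14.95, 14.197 and 11.46 to 8.095, 8.39 and 5.98 (66.1-fold lower, -6.05 ± 0.71, adjusted p = 0.0597). Fosb, its paralog, went from 13.68, 12.14 and 9.48 to 5.97, 6.27 and 5.85 (adjusted p = 0.0914), and Egr1, a zinc finger factor induced by serum, from 15.54, 14.14 and 11.97 to 8.83, 10.42 and 8.96 (adjusted p = 0.141). Egr2 had changes of -7.08, -4.93 and -2.52 and Arc, a synaptic immediate early gene outside the list, of -2.37, -2.73 and -3.05. In all 5 genes every day 7 level was below every day 0 level, as for 8.71% of all genes. For the Fos and Egr genes the day 0 level was lowest in the PKm2 knock-in line. In this list 6 genes were at least 2-fold lower in all 3 lines, and the medians were -1.89, -0.86 and -2.52. In limma 0 of the 17 passed, with 11 lower at an unadjusted p under 0.05, against 7.07% of all genes. Fosl2 had changes of 1.801, 1.63 and -4.83, and its other probe was higher in each line (0.59, 0.44 and 1.41).

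Fibroblast and feeder markers moved beside these groups. Of 22 tested, 11 were lower in all 3 lines, 0 were higher in all 3 and 11 went different ways, while 7 were at least 2-fold lower in all 3, and 3 fell in the test (Mgp, Col6a3 and Grem1). The medians were -0.16, -0.49 and -2.56, below 0 in each line and farthest from it in the PKm2 knock-in line. The mean log2 level of the list ranged from 8.21 to 8.80 at day 0 and was 8.40, 8.15 and 5.71 at day 7. Well above background were 21 of 22 markers on each day 0 array and 21, 20 and 14 on the day 7 arrays, so that no array lacked the list. Dcn, the matrix proteoglycan decorin, went from 13.43, 13.397 and 9.22 to 8.05, 6.97 and 5.93 (-5.04 ± 1.09, adjusted p = 0.166). As with Lcn2, Il6 and Fos, the day 0 level of Dcn was lowest in the PKm2 knock-in line. Acta2, smooth muscle actin, had changes of 6.38, 6.53 and -5.14, and Postn, the matrix protein periostin, of 5.71, 4.91 and -3.62. These last genes were thus far higher in the wild type and PKm1 knock-in embryoid bodies and far lower in those of the PKm2 knock-in line. Macrophage and leukocyte markers, of which 6 of 13 were tested, had medians of -0.69, 0.72 and 0.37. Their mean level ranged from 8.27 to 8.80 at day 0 and from 8.05 to 8.76 at day 7. The part of either cell type in the lower inflammatory, interferon and immediate early groups was not tested.

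Of 11 genes of the LIF receptor and its STAT3 targets, 6 were lower in all 3 lines, 0 were higher in all 3 and 5 went different ways. Socs3, the feedback inhibitor of LIF signalling and a STAT3 target, went from 13.51, 14.16 and 14.23 to 10.998, 11.59 and 12.37 (4.99-fold lower, -2.32 ± 0.28, adjusted p = 0.0597). Bcl3, another STAT3 target, had changes of -1.25, -1.36 and -1.95 and Pim3, a kinase, of -0.85, -1.04 and -0.93. Day 0 and day 7 did not overlap in any of these 3 genes, which were picked for their shared fall. Of the 11, 6 had every day 7 level below every day 0 level, against 8.71% of all genes. In limma 0 of the 11 passed and 6 were lower at an unadjusted p under 0.05, against 7.07% of all genes. The medians of the list were -0.54, -0.56 and -1.04. Gadd45g, a growth arrest gene, went apart, with changes of 3.04, 4.27 and -1.22.

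Of 14 naive pluripotency genes, 8 were lower in all 3 lines, 0 were higher in all 3 and 6 went different ways. Klf4, a naive factor and STAT3 target, went from 15.202, 15.02 and 14.696 to 13.19, 13.41 and 13.38 (3.13-fold lower, -1.65 ± 0.27, adjusted p = 0.125) and was the only naive gene at least 2-fold lower in all 3 lines. Tfcp2l1 and Klf5, further naive factors, had changes of -0.703, -2.76 and -0.35 and of -0.98, -2.38 and -0.34. Klf2 had changes of -0.85, -2.78 and 1.101, so that it was higher in the PKm2 knock-in line. The medians of the naive list were -0.55, -2.04 and -0.14, lowest in the PKm1 knock-in line. Among core genes, Pou5f1 (Oct4) stood at 14.86, 14.89 and 15.01 at day 0 and 14.47, 13.06 and 14.98 at day 7, and Sox2 had changes of -0.54, -1.93 and 0.43. Nanog was higher in all 3 lines, by 0.56, 0.53 and 1.08 (0.73 ± 0.21, adjusted p = 0.224). In limma 0 naive and 0 core genes passed, with 4 of 14 naive genes lower and 1 of 10 core genes higher at an unadjusted p under 0.05. At that p 7.07% of all genes were lower and 7.25% higher, so the core count was near the share of all genes.

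Of 12 formative epiblast genes tested, 8 were higher in all 3 lines, 0 were lower in all 3 and 4 went different ways. Bcl11a, a zinc finger repressor, went from 3.72, 2.64 and 4.06, not well above background on any array, to 6.63, 6.54 and 8.99 (at least 8.84-fold, 3.91 ± 0.45, adjusted p = 0.0597). Lef1, a nuclear partner of beta-catenin, went from 4.29, 3.37 and 5.45 to 7.18, 7.27 and 7.46, and Fgf5, the classic epiblast growth factor, from 5.35, 3.66 and 7.53 to 10.84, 10.496 and 8.99. Fgf15, another fibroblast growth factor, had changes of 1.66, 1.25 and 1.67. Groups did not overlap in any of these 4 genes, which were picked for their shared rise. Of the 12, 8 had every day 7 level above every day 0 level, against 7.06% of all genes. These 4 were at least 2-fold higher in all 3 lines, as were 0.833% of all genes. The medians of the list were 1.07, 1.22 and 1.34, although single members differed more between lines, as Fgf5 did with changes of 5.496, 6.83 and 1.46. In limma 0 passed, with 6 higher at an unadjusted p under 0.05, against 7.25% of all genes. Dnmt3a, a de novo DNA methyltransferase, was higher in 2 lines and lower in the third, with changes of 1.19, 2.11 and -1.24.

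Germ layer lists other than visceral endoderm were for the most part not shared. Primitive streak and early mesoderm genes had medians of 1.64, 2.16 and -0.63, with 0 of 12 at least 2-fold in one direction in all 3 lines. Pdgfra, a receptor of mesoderm and primitive endoderm, had changes of -2.28, 6.91 and 1.45, and Lhx1, a homeobox gene of early mesoderm, of 2.42, 2.18 and 0.11. Definitive endoderm genes had medians of 1.58, 1.48 and -0.59, and Foxa2 and Sox17, given above, were the members at least 2-fold higher in all 3 lines. A second Sox17 probe, well above background on 5 of the 6 arrays, had changes of 4.04, 8.51 and 0.63. For Sox17 a 2-fold rise in the PKm2 knock-in line thus depended on the probe. Cer1, a Nodal antagonist of anterior endoderm, had changes of 7.72, 4.95 and -1.96, opposite in the PKm2 knock-in line. Keratins of simple epithelium followed the same split: Krt8 went from 9.69, 9.08 and 11.61 to 13.25, 14.27 and 8.62, and its partner Krt18 had changes of 3.79, 5.39 and -3.07. Flt1, the endothelial growth factor receptor, had changes of 4.06, 6.44 and -1.103, and the heart myosin gene Myh7 of 2.87, 4.5 and 0.01. Neural ectoderm genes had medians of 0.04, -0.76 and -0.66, and Sox1, the earliest neural marker, was higher by 0.55, 0.57 and 1.93. A second Sox1 probe gave -0.01, -0.36 and 0.9, so its direction in the wild type and PKm1 knock-in lines depended on the probe. The Hox genes had medians of 0.28, 0.75 and -0.85, with 0 of 19 shared at 2-fold. In limma 0 genes of these lists passed. At an unadjusted p under 0.05, which 14.3% of all genes met, there were 1 higher and 1 lower of 12 primitive streak genes, 4 higher of 13 definitive endoderm genes, 1 lower of 15 genes of simple epithelium and trophoblast, 5 higher and 2 lower of 15 cardiac genes, 1 higher and 2 lower of 13 blood and endothelium genes, 1 higher and 2 lower of 15 neural genes and 2 higher of 19 Hox genes. Apart from the definitive endoderm and cardiac lists, each of these counts was 3 genes or fewer.

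Among lists of growth and metabolism, cell cycle and DNA replication genes had medians of -0.38, -0.61 and -0.07, with 19 of 33 lower and 0 higher in all 3 lines and 0 at least 2-fold. Mki67, the proliferation marker Ki-67, had changes of -0.52, -0.46 and -0.35. Genes of the integrated stress response had medians of -0.59, -0.82 and -0.28, 14 of 24 lower in all 3 lines, and Asns, asparagine synthetase, had changes of -0.65, -1.32 and -0.89. Glycolysis genes, the pathway that ends in pyruvate kinase, had medians of 0.62, 0.29 and -0.19. Pfkm, the muscle phosphofructokinase, was higher by 0.75, 1.104 and 0.93, and Hk1, a hexokinase, had changes of -0.41, -0.58 and -1.18. Hypoxia-inducible genes had medians of 0.15, 1.26 and -0.48, with Bnip3, a mitophagy receptor, at 2.44, 3.68 and -0.87. Cholesterol and fatty acid genes had medians of -0.02, -0.202 and 0.54, with 9 of 30 higher and 1 lower in all 3 lines. Sc5d, a sterol desaturase, was higher by 0.79, 1.403 and 0.83 and Srebf1, which drives lipid synthesis genes, by 0.75, 0.84 and 1.08, whereas Scd1, a fatty acid desaturase, had changes of -0.86, -1.04 and -0.35. In limma 0 genes of these 5 lists passed. At an unadjusted p under 0.05, 2 of 33 cell cycle genes, 7 of 24 stress genes, 1 of 24 glycolysis genes and 1 of 17 hypoxia genes were lower. Higher were 4 glycolysis genes and 3 of 30 cholesterol and fatty acid genes. Over all genes 7.25% were higher and 7.07% lower at that p, so the cell cycle and hypoxia counts were near the share of all genes. Of all 15013 genes, 2361 were higher and 3007 lower in all 3 lines.

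**Figure D3:**
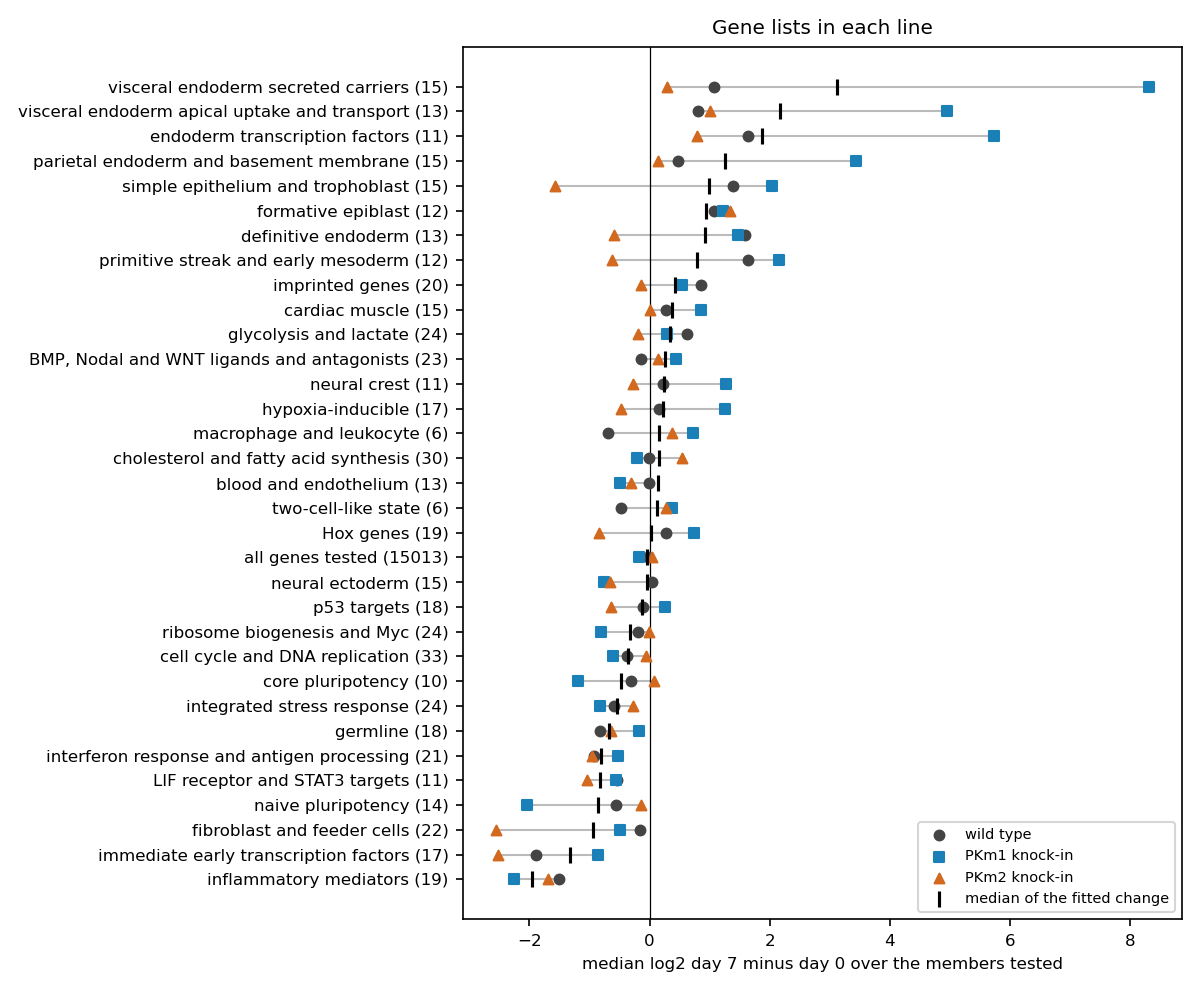
Median log2 change from day 0 to day 7 (x axis) over the tested members of each gene list (their number in brackets), with a point for each line and a black bar for the median of the fitted change over the lines. The 3 points lie close together for formative epiblast (1.07 to 1.34) and inflammatory mediators (-2.26 to -1.51) and far apart for visceral endoderm secreted carriers (0.29 to 8.32).

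Among secreted signals, Lefty1, a Nodal antagonist, went from 9.55, 10.24 and 8.67 to 12.43, 10.302 and 12.22 and Sfrp5, a WNT antagonist, from 5.57, 5.497 and 6.27 to 11.22, 11.25 and 6.98. Lefty1 was thus almost level in the PKm1 knock-in line and Sfrp5 only slightly higher in the PKm2 knock-in line. Bmp4, a bone morphogenetic protein made by undifferentiated ES cells, had changes of -1.22, -1.82 and -0.79. Grem1 was the gene of the 23 in this list that passed. Of imprinted genes, Igf2, an insulin-like growth factor of yolk sac, went from 4.46, 3.52 and 4.69 to 9.35, 10.12 and 5.18, and Nnat, neuronatin, had changes of 2.56, 0.98 and 1.77. The list had medians of 0.86, 0.53 and -0.15, with 4 higher and 2 lower of 20 at an unadjusted p under 0.05 and 0 that passed in limma. At that p 7.25% of all genes were higher and 7.07% lower.

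Far more genes moved at least 2-fold in a single line than in all 3. At least 2-fold higher at day 7 were 1108 genes in the wild type line, 2116 in the PKm1 knock-in line and 1257 in the PKm2 knock-in line, of which the 125 shared genes were 11.3%, 5.91% and 9.94%. At least 2-fold lower were 736, 1502 and 1282, of which the 141 were 19.2%, 9.39% and 11%. The SD of the change over all genes was 0.83, 1.28 and 0.92, so the PKm1 knock-in line spread furthest. Over the 15013 genes, which are not independent replicates, the changes of the wild type and PKm1 knock-in lines correlated at r = 0.578 (rho = 0.523). The r was 0.0892 between the wild type and PKm2 knock-in lines and 0.0966 between the knock-in lines. All 3 lines moved the same way for 2361 higher and 3007 lower genes, 35.8% of those tested. The line that changed least among the 125 shared increases was the PKm2 knock-in line for 65, the wild type line for 41 and the PKm1 knock-in line for 19. With 1 array per line and day, the difference between lines has no test, and for the PKm2 knock-in line it cannot be told apart from the slide of its day 7 array.

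**Figure D4:**
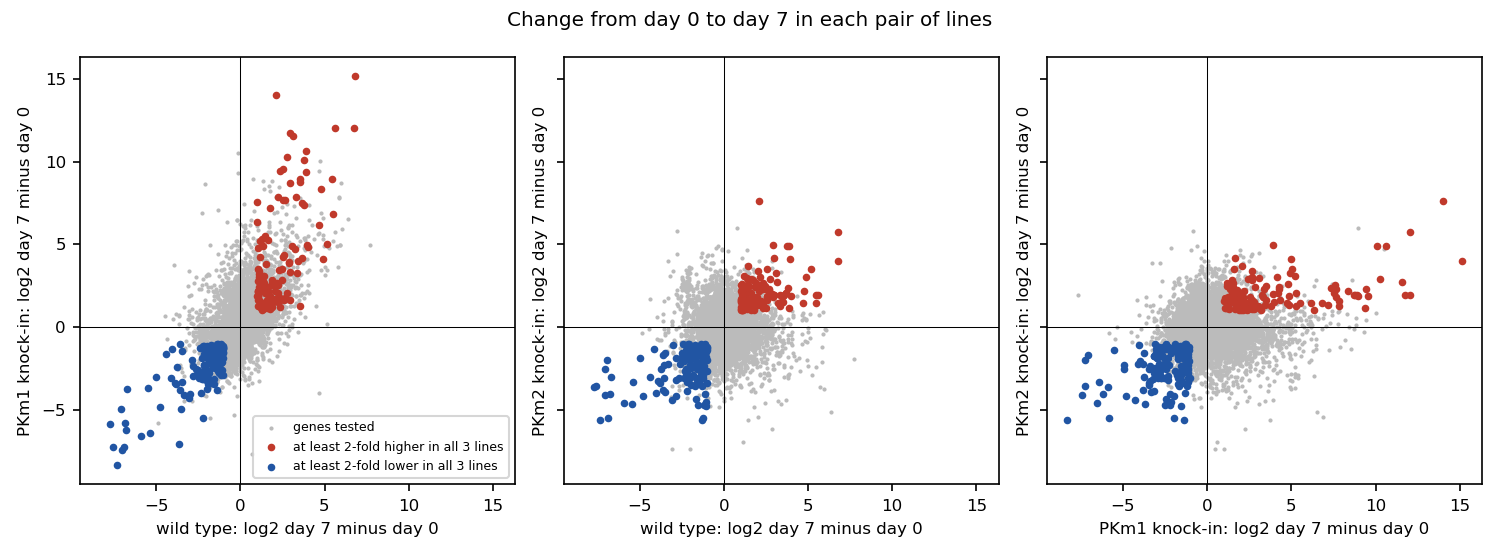
Change in log2 signal from day 0 to day 7 of 15013 genes (grey points) in each pair of lines, with the 125 genes at least 2-fold higher (red) and the 141 at least 2-fold lower (blue) in all 3 lines. The cloud is drawn out along the diagonal for wild type against PKm1 knock-in (r = 0.578) and is round for either of them against PKm2 knock-in (r = 0.0892 and 0.0966).

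The day 3 arrays place these changes in time. Day 3 and day 7 were set against the same day 0 arrays, so their values are given side by side and not tested against each other. Il6 differed from day 0 by -6.67, -6.56 and -4.65 at day 3 and by -5.93, -6.56 and -4.59 at day 7, and Fos by -9.16, -7.98 and -5.12 and -6.86, -5.81 and -5.48. Bcl11a was at 3.88, 5.88 and 5.67 and 2.91, 3.898 and 4.93. The low inflammatory and immediate early levels and the high formative epiblast level of these genes were thus already there at day 3. Ttr was at 0.28, 0.14 and -0.35 at day 3 against 6.76, 12.02 and 5.72 at day 7, and Afp at 0.02, -0.24 and 0.08 against 6.797, 15.15 and 3.999. Dab2 was at -2.12, -1.87 and -0.25 against 3.67, 7.51 and 2.06, and Col4a1 at -1.06, -0.698 and -0.45 against 3.54, 8.93 and 1.899. These 4 genes were near or below their day 0 level at day 3 in each line, but others of the endoderm lists were higher in some or all lines. Slc23a1 was at 1.63, 2.48 and 1.96 at day 3, above its day 7 change in each line, Lrp2 at 0.98, 1.43 and 1.31, Cubn at 1.16, 1.35 and 1.26 and Pth1r at 2.41, 2.39 and 0.07. At day 3, 3 of 15 secreted carriers, 4 of 13 uptake genes, 1 of 11 endoderm factors and 2 of 15 basement membrane genes were above day 0 in all 3 lines, and 3, 6, 6 and 9 of them were below it in all 3. Of the fibroblast and feeder markers 21 of 22 were below day 0 in all 3 lines at day 3 (medians -2.69, -3.41 and -2.602), as were 17 of 19 inflammatory mediators (-4.42, -4.24 and -2.13). Mgp lay between, at -2.64, -4.69 and -3.595 at day 3 and -7.35, -8.32 and -5.61 at day 7, and so did Car14, at 1.62, 2.85 and 1.75 and 3.08, 4.92 and 3.28. Bcl3 was at 0.21, -0.09 and -0.96 at day 3 and -1.25, -1.36 and -1.95 at day 7. Lefty1 was high at day 3 in all 3 lines (4.13, 4.09 and 3.32) and at day 7 in the wild type and PKm2 knock-in lines (2.87, 0.06 and 3.54).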

How the data were processed

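The members and gene lists were chosen with earlier results of these data known. Total RNA of 3 ES cell lines at 3 times was read on 9 one-colour arrays, per the labels. The authors made the intensity values with Agilent Feature Extraction 10.10, per the submitters' processing notes. The series' value table, also deposited, held the same intensity values (largest difference 0.497%). Columns of no sample used: 0.

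Spots other than the 3671 controls and those flagged (133 to 225 an array) were used. Here the processed signals were scaled to a common 75th percentile, floored at 5 and turned to log2. The deposited files hold no log2 values. Spots of a probe were averaged, and each gene was read by its brightest probe (3890 genes had several probes passing). Among named genes, 36 had several detected probes and 5 had probes of opposite sign. Symbols came from the RefSeq list through the accession of each probe. Probes without 1 symbol were not analysed here. Some results of named genes and of 1 promoter motif are not reported here.

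limma 3.58.1 (R 4.3.3, with version 1.17.8 of data.table and 2.0.0 of jsonlite) fitted line and day to the 9 arrays, with Benjamini-Hochberg adjustment over 15013 genes. The line pairs the arrays, since a day 0 and a day 7 array of the same name come from the same cell line. The median standard error of a change was 0.262, a precision set by the number of arrays. The fit was tested on simulated data. Python 3.11.15, pandas 2.3.3, numpy 2.4.6 and matplotlib 3.10.9 searched the promoters and drew the figures.

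Named were the genes that passed, the 15 largest shared differences in each direction (ranked by the line that changed least, detected on all 3 arrays of the higher group, with an established symbol), up to 4 members of each list in each direction by the same rank, up to 2 with the widest gap between lines, and Pkm. All 627 gene entries of 32 lists were matched to a symbol. Lists are described by counts and medians, with no set test.

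Alternatives were normexp (offset 50, on median foreground and background), quantile normalization, the percentile of detected probes, the value table, other filters, floors of 1 and 20, probe means, array weights, trended and robust moderation, no replicate block, the 6 arrays alone, the slide as a block, each line or array left out, an adjusted p under 0.1, and folds of 1.5 and 3. Chosen after seeing the data were dim arrays raised to the detection limit, the slide block for list medians, and spots averaged on the linear scale.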

Additional observations from a re-analysis of the deposited data

Results flagged for a closer look

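In 5 gene lists the lines moved opposite ways by a median of at least 0.5 on the log2 scale. With 1 array per line and day these differences were not tested, and no other array shared the slide of PKm2 knock-in day 7. The primitive streak and early mesoderm median was 2.16 in the highest line and -0.63 in the lowest. Simple epithelium and trophoblast stood at 2.04 and -1.58, and definitive endoderm at 1.58 and -0.59. The Hox genes stood at 0.75 and -0.85. In these 4 lists the PKm2 knock-in line was the lowest. The macrophage and leukocyte median was 0.72 in the PKm1 knock-in line and -0.69 in the wild type line, over 6 genes.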

How the results depend on the processing

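Of 15 genes called, alternatives called 60 at an adjusted p under 0.1, 5 after quantile normalization, 6 with the percentile of detected probes, 3 without the filter, 1 with the filter on all 6 arrays, 23 with trend and robust moderation, 2186 with array weights, 8 with no replicate block, 0 with the 6 arrays alone (limma, 1550 at an unadjusted p under 0.05) and 1 with the slide as a block. Leaving out a line or an array gave 0 to 193. Normexp called 19, of which 8 were among the 15. The 125 higher and 141 lower shared genes became 40 and 57 with normexp, 62 and 82 with the filter on all 6 arrays, 356 and 385 at 1.5-fold and 46 and 56 at 3-fold. Asked of 2 lines, with 1 left out, they were 204 to 744 and 254 to 322. Raising dim arrays to the detection limit gave 110 and 126. Of values of named genes, 6 reversed and none of these was called. Tbx6 was at -0.29 with normexp and -0.066 with probe means, and Hspg2 at 0.033 with probe means. Leaving out single lines or arrays put Hspg2 between -0.191 and 0.0172 (highest without PKm1 knock-in day 0), Pkm between -0.0169 and 0.749 and Eno1 between -0.0104 and 0.439 (both lowest without wild type day 0). With the slide as a block, list medians were 3.69 for secreted carriers, 3.00 for uptake genes, 3.45 for endoderm factors, 1.25 for formative epiblast, -1.22 for inflammatory mediators and -0.31 for fibroblast markers. The inflammatory median ranged from -2.45 to -0.77 over its alternatives. The causes were not tested. Scaling moved the median of all genes by under 0.1. Low signals limit the genes undetected on 1 day, whose folds are lower limits only under the rule used for dim arrays.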

Other observations

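Of the 5 lists not described above, 0 genes passed in limma. At an unadjusted p under 0.05, 2 of 11 neural crest genes were higher. Lower were 2 of 24 ribosome biogenesis and Myc genes, 3 of 18 germline genes, 1 of 18 p53 targets and 1 of 6 genes of the cleavage-stage state. Over all genes 7.25% were higher and 7.07% lower at that p. Ribosome biogenesis and Myc genes had medians of -0.19, -0.81 and -0.0026 in the wild type, PKm1 knock-in and PKm2 knock-in lines, with 10 of 24 lower in all 3. Mycn, the Myc family member of ES cells, had changes of -0.30, -1.56 and -0.57. The p53 targets had medians of -0.11, 0.25 and -0.64, and Fas, the death receptor, lay at 0.31, 0.29 and -3.70. Neural crest genes had medians of 0.23, 1.27 and -0.28, with Pax3, a paired box factor of the dorsal neural tube, at 2.78, 1.56 and 0.01. The germline list had medians of -0.83, -0.17 and -0.63. Piwil2, which acts in the piRNA pathway, had changes of -0.93, -1.40 and -1.63, while the homeobox gene Rhox5 lay at -2.05, 3.09 and -0.90. Genes of the state resembling the cleavage-stage embryo had medians of -0.48, 0.37 and 0.27 over 6 members.

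Mest, an imprinted hydrolase gene expressed from the paternal allele, differed between the lines more than between the days. Wild type cells had levels of 4.43 at day 0 and 6.28 at day 7. PKm1 knock-in cells had 11.19 and 12.17. PKm2 knock-in cells had 11.46 and 12.31. It was higher at day 7 in each line, and both wild type levels lay far below all knock-in levels. The source of this difference was not tested.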
